A study of Mus musculus with 96 samples.

Results

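Gene exons were 1 of the 4 region classes in which methylated DNA of muscle satellite cells was compared. The members described here are the lines of the authors' deposited exon table that carry a chromosome, taken once per distinct position, which gave 2444 of the 3040 distinct regions listed over exons, promoters, CpG islands and CpG shores. DNA methylation in mammals sits mostly on cytosines followed by guanine (CG), is dense over the bodies of many genes and is sparse at most CG-rich gene starts. A protein domain that binds methylated CG pulls down DNA fragments that carry the mark, so the captured amount over an exon rises both with its number of CG sites and with the share of them that is methylated. Satellite cells are the stem cells of skeletal muscle, which are quiescent until they are activated to make new muscle.

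The capture libraries came from satellite cells of C57Bl/6 mice in 4 groups of 6, unirradiated on chow, unirradiated on a high fat diet (HFD), irradiated on chow and irradiated on the HFD. No allele, transgene or Cre is given for any group, and the sources used here give neither the dose nor the age of the animals nor the interval to collection. The labels do not say whether libraries came from separate animals, so the p-values measure the spread between libraries, which may be technical. RNA and bisulfite libraries of satellite cells came from the same 4 kinds of group, with 24 libraries in each assay. The study's title places the comparison in a question on radiation, a high fat diet and the progenitor cells of muscle and fat.

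Every fold change, abundance and p-value of an exon region below is from the authors' deposited exon table. It gave, for each region, an unadjusted p-value, a likelihood ratio, a log2 fold change and the mean abundance in log2 CPM, which is a count scaled to the size of the library, and the table held 0 columns of single samples. No value per library, standard deviation or depth can therefore be given. The error given beside a fold change is an approximate standard error (SE), the size of the fold change divided by the square root of the likelihood ratio. The sides of the contrast are not named, so "higher" and "lower" mean a positive and a negative deposited fold change, with no treatment attached. Whether the coefficient sums the effects on both diets is also not known. The p-value equalled the upper tail of a chi-square distribution with 1 degree of freedom at the likelihood ratio, with a largest relative deviation of 6.55e-15, so each value is 1 coefficient of the authors' model.

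A listed region is a transcript and not a single exon. Each line carried 1 RefSeq transcript identifier and a plus strand, whatever the strand of the gene. Of 2406 regions whose gene was found in RefSeq on the same chromosome, 60.1% began within 5 bases of the gene's lower end, while 4.32% ended at its upper end. The median gene spanned 27544 bases, and the listed length was at the median 9.82% of the span. The start is thus the lowest coordinate of the transcript, and the listed end is the start plus the summed length of the exons. The 36 regions of plus-strand genes that also had a promoter entry of 2000 bases all began at the centre of that window. Promoter entries that spanned several genomic copies, 7 in all, were left out of this check. The listed end marks an exon end only for transcripts of a single exon, and coordinates below are given as the table has them, in build mm10.

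MicroRNA genes are short members whose listed interval is in most cases the hairpin itself, so sequences of some are shown. A microRNA is cut from a hairpin of the primary transcript, and bases 2 to 8 of the mature RNA, the seed, pair with target messenger RNAs. The list held 34 microRNA regions. For 28 a hairpin of the same symbol and chromosome was found in RefSeq (GRCm38.p6, the assembly of mm10), and 27 of these had the identical start and end. The other microRNA regions had no such match and are not in the hairpin counts below. The 5 below were chosen after their values were seen, from both sides of the list, and are printed 5′ to 3′ with each CG in capitals.
Mir425, chr9:108568777-108568861, plus strand: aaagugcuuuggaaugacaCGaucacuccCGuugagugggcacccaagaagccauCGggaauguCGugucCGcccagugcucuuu
Mir490, chr6:36421742-36421825, plus strand: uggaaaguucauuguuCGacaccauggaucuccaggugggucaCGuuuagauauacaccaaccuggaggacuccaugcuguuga
Mir3061, chr11:52126746-52126836, plus strand: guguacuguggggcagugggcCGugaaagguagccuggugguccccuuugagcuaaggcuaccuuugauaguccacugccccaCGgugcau
Mir20a, chr14:115044157-115044263, plus strand: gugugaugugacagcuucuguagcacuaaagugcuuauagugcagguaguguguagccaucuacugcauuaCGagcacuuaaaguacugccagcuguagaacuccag
Mir19b-1, chr14:115044305-115044391, plus strand: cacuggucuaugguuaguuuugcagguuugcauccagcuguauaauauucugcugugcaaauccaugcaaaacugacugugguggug

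Mir425 was lower by a log2 fold change of -1.09 (approximate SE 0.27, unadjusted p = 5.36e-05) and held 5 CG in 85 bases. Mir490 stood at -0.91 (approximate SE 0.26) with 2 CG in 84 bases. On the other side, Mir3061 stood at 1.45 (approximate SE 0.37, unadjusted p = 6.79e-05) with 2 CG in 91 bases. Mir20a and Mir19b-1, neighbours in the Mir17-92 cluster of growth-promoting microRNAs, stood at 1.51 (approximate SE 0.48) and 1.52 (approximate SE 0.48). Both were higher by nearly the same amount, although the hairpin of Mir20a held 1 CG and that of Mir19b-1 held 0. Their abundances were low, at 1.64 and 1.61 log2 CPM, and that of Mir3061 was 2.08. Captured fragments are longer than a hairpin, so reads over it also come from flanking DNA.

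Across the 27 hairpin regions, which were 57 to 113 bases long, 15 were lower and 12 were higher. The lower hairpins held a median of 3 CG and the higher ones a median of 1.5. Of the 5 hairpins without a CG, 2 were higher and 3 were lower. The higher side also held Mir16-1, a microRNA known to restrain the cell cycle, at 1.64 (approximate SE 0.58), and Mir182 at 0.82 (approximate SE 0.30). Mir5123 at -1.85 (approximate SE 0.60) had the lowest fold change of the whole exon list, at a low abundance of 1.51 on the log2 CPM scale and with 0 CG in its hairpin.

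A run of 7 microRNA regions lay on chromosome 12 between 109563692 and 109733846, in the imprinted Dlk1-Dio3 region, where a large cluster of microRNAs is transcribed from the maternal chromosome. Of these, 5 were lower and 2 were higher. Mir770 stood at -0.64 (approximate SE 0.22), Mir341 at -0.67 (approximate SE 0.26) and Mir323 at -0.85 (approximate SE 0.25). Mir543 stood at -0.83 (approximate SE 0.24) and Mir487b at -0.75 (approximate SE 0.23). Mir329, which lies between Mir323 and Mir543, stood at 1.01 (approximate SE 0.38), and Mir382, the last of the run, stood at 0.86 (approximate SE 0.31). The lower hairpins held 12 CG in Mir341, 8 in Mir323, 6 in Mir770, 6 in Mir543 and 3 in Mir487b, and the higher ones held 4 in Mir382 and 2 in Mir329. The direction thus changed within the run, and all 5 lower hairpins were more abundant, at 3.28 to 3.81 log2 CPM, than Mir329 at 2.02 and Mir382 at 2.43. Their mature RNAs are printed to show that the run is not 1 repeated microRNA, with the seed in capitals and no seed shared among them.
mmu-miR-770-5p: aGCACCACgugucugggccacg
mmu-miR-341-3p: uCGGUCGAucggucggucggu
mmu-miR-323-3p: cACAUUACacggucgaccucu
mmu-miR-329-3p: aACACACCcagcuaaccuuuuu
mmu-miR-543-3p: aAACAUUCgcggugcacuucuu
mmu-miR-487b-5p: uGGUUAUCccuguccucuucg
mmu-miR-382-5p: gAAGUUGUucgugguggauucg

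In all, 1622 of the 2444 exon regions were higher and 822 were lower, so 66.4% of the list was higher. These lines are all that the authors listed, so the shares describe the list and not all exons of the genome. With 1 region for each of the 1796 gene symbols, 1210 were higher, or 67.4%. The higher side also had the larger values, with a median log2 fold change of 0.82 against -0.37 on the lower side. A log2 fold change of at least 1 was reached by 469 regions, or 19.2% of the list, and one of -1 or below by 4. Unadjusted p-values ran from 1.33e-10 to 0.00877, and 568 regions, 23.2% of the list, were under 0.001, of which 428 were higher and 140 lower. The higher value nearest to 0 was 0.20 and the lower one nearest to 0 was -0.15.

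**Figure D1:**
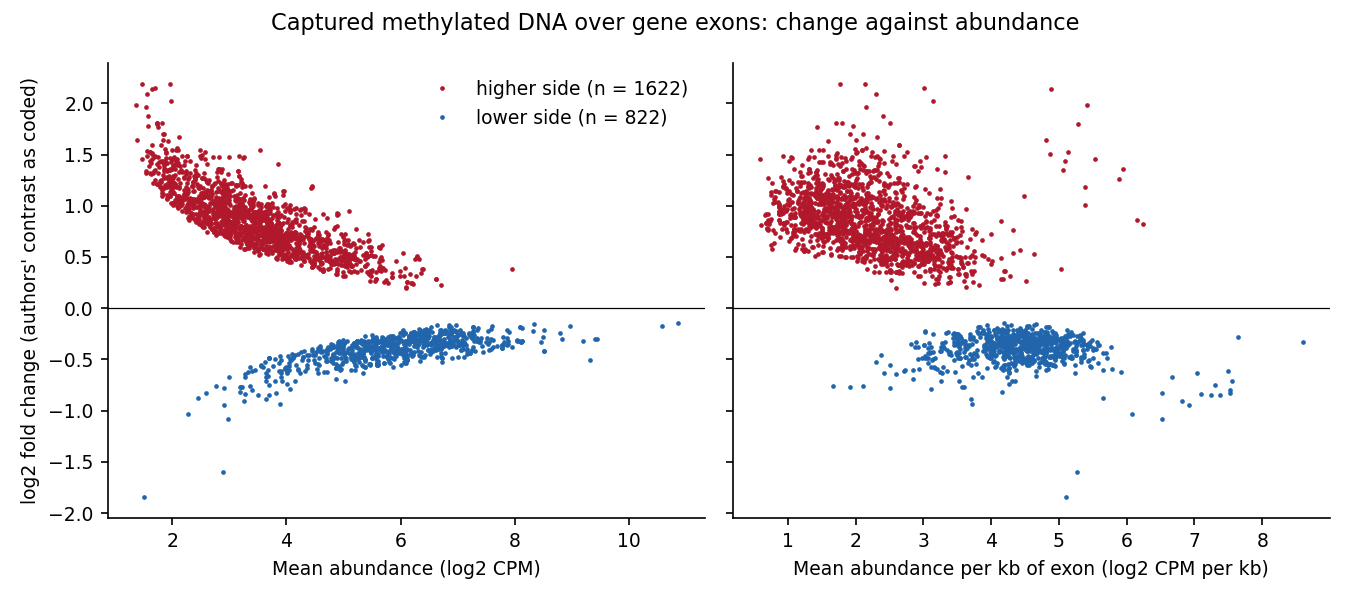
Each point is 1 of the 2444 exon regions, with the deposited log2 fold change on the vertical axis against mean abundance in log2 CPM on the left and against abundance per kb of summed exon length on the right. The 1622 higher regions lie mostly at low abundance and the 822 lower regions mostly at high abundance, and the size of the fold change narrows as abundance rises.

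Direction followed abundance through the list. In the lowest quintile of mean abundance 99.0% of regions were higher, and in the highest 6.13%. Long transcripts collect more fragments, so the abundance was also divided by the summed exon length. Per kb of exon, 99.8% of regions in the lowest quintile were higher, 99.4% in the next, 92.4% in the middle one, 36.2% in the one after and 4.09% in the highest. By length alone the share fell from 75.1% in the shortest quintile to 60.7% in the longest. Among regions of the top tercile of abundance, 21 of 21 in the bottom tercile per kb were higher, and 20 of 643 in the top tercile per kb. Across regions, the Spearman correlation of the fold change was -0.815 with abundance, -0.765 with abundance per kb and -0.226 with length (n = 2444 regions, which share their libraries). Within the higher regions alone the size of the fold change also fell with abundance (Spearman correlation -0.837), and a region of low abundance needs a larger fold change to reach a given p.

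**Figure D2:**
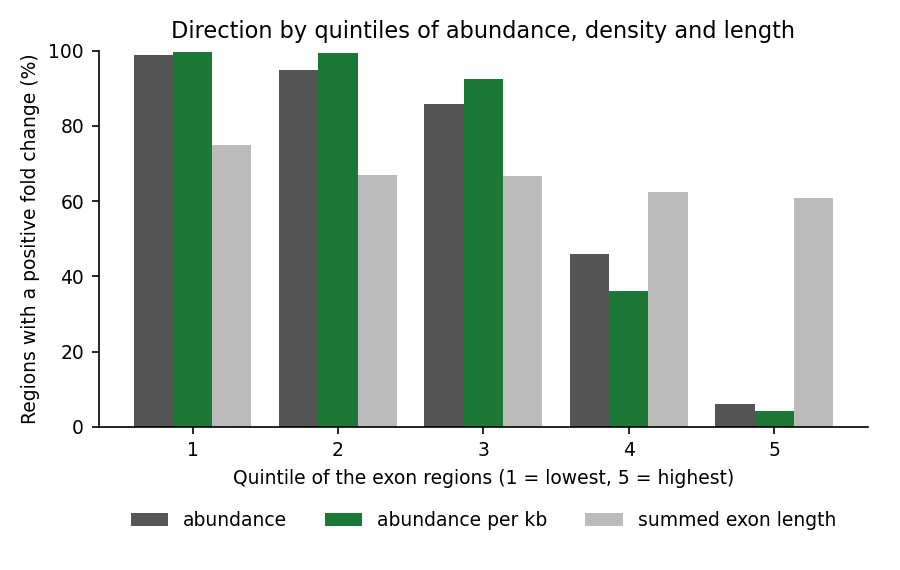
Bars show the percentage of exon regions with a positive log2 fold change in quintiles of the list by mean abundance, by abundance per kb and by summed exon length. The share falls from 99.0% to 6.13% over the quintiles of abundance, from 99.8% to 4.09% over those per kb, and from 75.1% to 60.7% over those of length.

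The highest fold changes belonged to scarce regions. Tlcd2 stood at 2.19 (approximate SE 0.42), the predicted gene Gm14393 at 2.19 (approximate SE 0.56), 1700065J18Rik at 2.15 (approximate SE 0.50), Mir466g at 2.14 (approximate SE 0.52) and 1700104L18Rik at 2.09 (approximate SE 0.52). Their abundances ran from 1.48 log2 CPM for Gm14393 to 1.96 for Tlcd2. Mir466g is listed at 108470105 on chromosome 8, while RefSeq places the gene of that name at 10514595 to 10514674. Its promoter entry, 4000 bases wide, spans several copies, so the value is not tied to 1 locus. On the lower side, Mir5123 and Mir425 stood beside the transcribed pseudogene Gm21944 at -1.60 (approximate SE 0.29), Mir6923 at -1.03 and Mir7069 at -0.95. The lowest p of the list was that of Alkbh1, a dioxygenase that removes methyl groups from nucleic acids, at 1.48 (approximate SE 0.23, unadjusted p = 1.33e-10). It was followed on that side by Tlcd2, 1700054M17Rik at 2.03, Cml1 at 1.40 and the cystatin protease inhibitor Cst6 at 1.46. The lower side was led by Gm21944 (unadjusted p = 2.28e-08), Zic4, a zinc finger transcription factor of the developing brain, at -0.69, the odorant receptor gene Olfr606 at -0.89, 2210016F16Rik at -0.49 and the chondroitin synthase gene Chsy3 at -0.49.

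Among regions at or above the median abundance, the 8 highest values included 3 transcripts of the cyclic nucleotide phosphodiesterase gene Pde1c, at 1.17 to 1.19. The lowest of all 8 listed Pde1c transcripts stood at 0.77 and the highest, at a lower abundance, at 1.41. The remaining 5 of the 8 highest values belonged to 5 genes. The mismatch repair gene Pms1 stood at 1.01 (approximate SE 0.36), the stress granule protein Tia1 at 0.97 (approximate SE 0.29), the Ras-inactivating protein Rasa1 at 0.98 (approximate SE 0.30), the autophagy kinase Ulk2 at 0.97 (approximate SE 0.34) and Ttc14 at 0.98 (approximate SE 0.26). The 8 lowest values included Taf7l, a germ cell form of a general transcription factor subunit, at -0.79 (approximate SE 0.19), the meiotic chromosome protein Hormad1 at -0.64 (approximate SE 0.19) and the imprinted G protein gene Gnas at -0.71 (approximate SE 0.25). Zic4 was among them as well. The cytokine gene Il17d stood at -0.63, Gm4971 at -0.63 and A330102I10Rik, with 2 transcripts, at -0.71 and -0.74.

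Protein-coding transcripts made up 2223 regions, of which 65.4% were higher, close to the 66.4% of the whole list. Of 134 long non-coding RNA regions, 123 were higher and 11 lower, or 91.8% higher, at a median abundance of 2.62 log2 CPM against 4.14 for protein-coding ones. Of 34 microRNA regions 16 were higher and 18 lower. The 20 transcribed pseudogenes were 12 higher and 8 lower. By chromosome the share of higher regions ran from 46.3% on chromosome 10 (n = 108) and 49.4% on chromosome 19 (n = 81) to 81.8% on the X chromosome (n = 77), with 80.9% on chromosome 11 and 80.4% on chromosome 2. The median abundance moved with this, from 4.95 log2 CPM on chromosome 10 and 5.31 on chromosome 19 to 3.37 on the X chromosome, and its part in the result was not tested.

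Transcripts of the same gene share exons, so their values are not independent. Of 372 symbols with several regions, 1 had both directions. It was Ddx17, an RNA helicase, with 1 transcript at -0.45 (approximate SE 0.15) and another, which begins 6965 bases further on, at 0.79 (approximate SE 0.25). The gene with the most regions was Crem, a cyclic AMP-responsive transcription factor with many start sites, whose 11 transcripts stood between 1.01 and 1.19. Next came the scaffold gene Magi1, with 9 between -0.36 and -0.26, and 6 genes with 8 each. Of these, the hydroxylase gene Asph stood between 0.86 and 1.54, the kinesin light chain gene Klc1 between -0.38 and -0.35, the nucleotide sugar receptor gene P2ry14 between -0.37 and -0.33, and Tbc1d24 between 0.35 and 0.37, with Pde1c and Tcf7l2 given elsewhere.

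The gene lists below were written with earlier results of these data known, and their counts describe the list of regions only. For direction in each, the share of higher regions over the whole list, 66.4%, is the background. The share of all genes that reached the exon list was not computed, so no number of listed members is read as high or low. Of 43 imprinted genes, 5 were listed and all 5 were lower. They were the paternally expressed zinc finger gene Peg3 at -0.37 (approximate SE 0.11), its neighbour Zim1 at -0.47 (approximate SE 0.14), Trappc9 at -0.48 (approximate SE 0.15), the splicing factor relative Zrsr1 at -0.53 (approximate SE 0.18) and Gnas. All 5 had an abundance of at least 5.03 log2 CPM, where most of the list was lower. For insulin signalling and glucose use, 4 of 40 genes considered here are given, each with a lower value. This list and that of oxidative phosphorylation are not given in full, so no direction of either list as a whole is read from them. The insulin-like growth factor receptor Igf1r stood at -0.32 (approximate SE 0.10), the hexokinases Hk1 and Hk2 at -0.41 (approximate SE 0.13) and -0.38 (approximate SE 0.12), and the catalytic subunit Pik3cb at -0.20 (approximate SE 0.07). Their abundance per kb of exon ran from 4.16 log2 CPM per kb for Pik3cb to 5.54 for a transcript of Hk1, where most of the list was lower.

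Of 74 genes of oxidative phosphorylation considered here, 7 were listed, 5 higher and 2 lower. Higher were the complex I subunits Ndufa1 at 1.21 (approximate SE 0.43) and Ndufb3 at 1.04 (approximate SE 0.34), the complex III subunit Uqcrc2 at 0.94 (approximate SE 0.25), cytochrome c (Cycs) at 0.66 (approximate SE 0.20) and the ATP synthase subunit Atp5j at 0.99 (approximate SE 0.37). Lower were the ATP synthase subunits Atp5a1 at -0.38 (approximate SE 0.13) and Atp5j2 at -0.53 (approximate SE 0.16). ATP synthase subunits therefore stood on both sides, at 2.13 log2 CPM for Atp5j against 4.51 for Atp5j2 and 5.94 for Atp5a1. Direction followed abundance through the exon list, and its part in these and the following gene lists was not tested. Of 37 sarcomere genes, 5 were listed. The fast troponin Tnni2 at 0.57 (approximate SE 0.18) and the tropomyosin Tpm2 at 0.56 (approximate SE 0.21) were higher, and the myosin heavy chains Myh1 at -0.29 (approximate SE 0.09) and Myh2 at -0.37 (approximate SE 0.13) and titin (Ttn) at -0.17 (approximate SE 0.06) were lower.

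Of 53 chromatin modifiers, 5 were listed. The histone deacetylases Hdac9 at 0.92 (approximate SE 0.30) and Hdac10 at 0.68 (approximate SE 0.22) and the acetyltransferase Ep300 at 0.66 (approximate SE 0.25) were higher, while the histone methyltransferases Kmt2a at -0.19 (approximate SE 0.07) and Suv39h1 at -0.46 (approximate SE 0.17) were lower. Of 24 genes of the DNA methylation machinery only Uhrf2 was listed, a reader of modified cytosines, at 0.54 (approximate SE 0.19). Among 48 genes of DNA damage repair and p53, the end-joining genes Xrcc4 at 1.04 (approximate SE 0.39) and Prkdc at 0.48 (approximate SE 0.17) were higher, and Trp53 at -0.38 (approximate SE 0.13) was lower. Of 39 Hox genes, Hoxd1 at 1.36 (approximate SE 0.39) was higher, and Hoxa4 at -0.50 (approximate SE 0.17) and Hoxa13 at -0.77 (approximate SE 0.29) were lower. Of 68 histone genes, Hist2h2be stood at 1.25 (approximate SE 0.36) and Hist1h2ba at -0.62 (approximate SE 0.19).

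Of 57 Wnt and Notch genes, both listed members were lower. Both lie in the highest quintile of abundance, where only 6.13% of regions were higher. The Wnt effector Tcf7l2 had 8 transcripts between -0.42 and -0.40, and the co-receptor Lrp5 stood at -0.31 (approximate SE 0.11). Of 29 adipogenic regulators the zinc finger gene Zfp521, which restrains fat cell formation, was listed at -0.36 (approximate SE 0.13). Of 34 satellite cell and myoblast genes, the integrin subunit Itgb1 was higher at 0.92 (approximate SE 0.28) and Megf10, a receptor of satellite cells, was lower at -0.33 (approximate SE 0.11). None of the 7 defining satellite cell markers was in the exon list, and neither were any of the 11 endothelial markers. Without the share of all genes that were listed, these absences say nothing particular about the markers. Of 10 fibroblast and 9 leukocyte markers 1 and 3 were listed. The fibroblast gene Col1a2 stood at 0.52 (approximate SE 0.15), and the leukocyte genes Ptprc at 1.13 (approximate SE 0.35), Cd68 at 0.84 (approximate SE 0.29) and Itgam at 0.41 (approximate SE 0.16), all higher. Abundance per kb of exon was 1.40 log2 CPM per kb for Ptprc, 2.27 for Cd68, 2.93 for Itgam and 3.12 for Col1a2. Most of the list was higher at such values. Whether the share of such cells differed between the capture libraries was not tested. The RNA table over both diets lists 2 of the 7 satellite cell markers, Itga7 at 10.6 and Cdh15 at 9.10 log2 CPM, and 2 of the 9 leukocyte markers, Mrc1 at 1.63 and Itgam at 0.85. It also lists 5 of the 10 fibroblast markers, from 0.68 for Thy1 to 6.07 for Col1a2, and 0 of the 11 endothelial ones. A marker that is not listed there was not shown to be unexpressed, so these counts do not measure the purity of the cells.

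**Figure D3:**
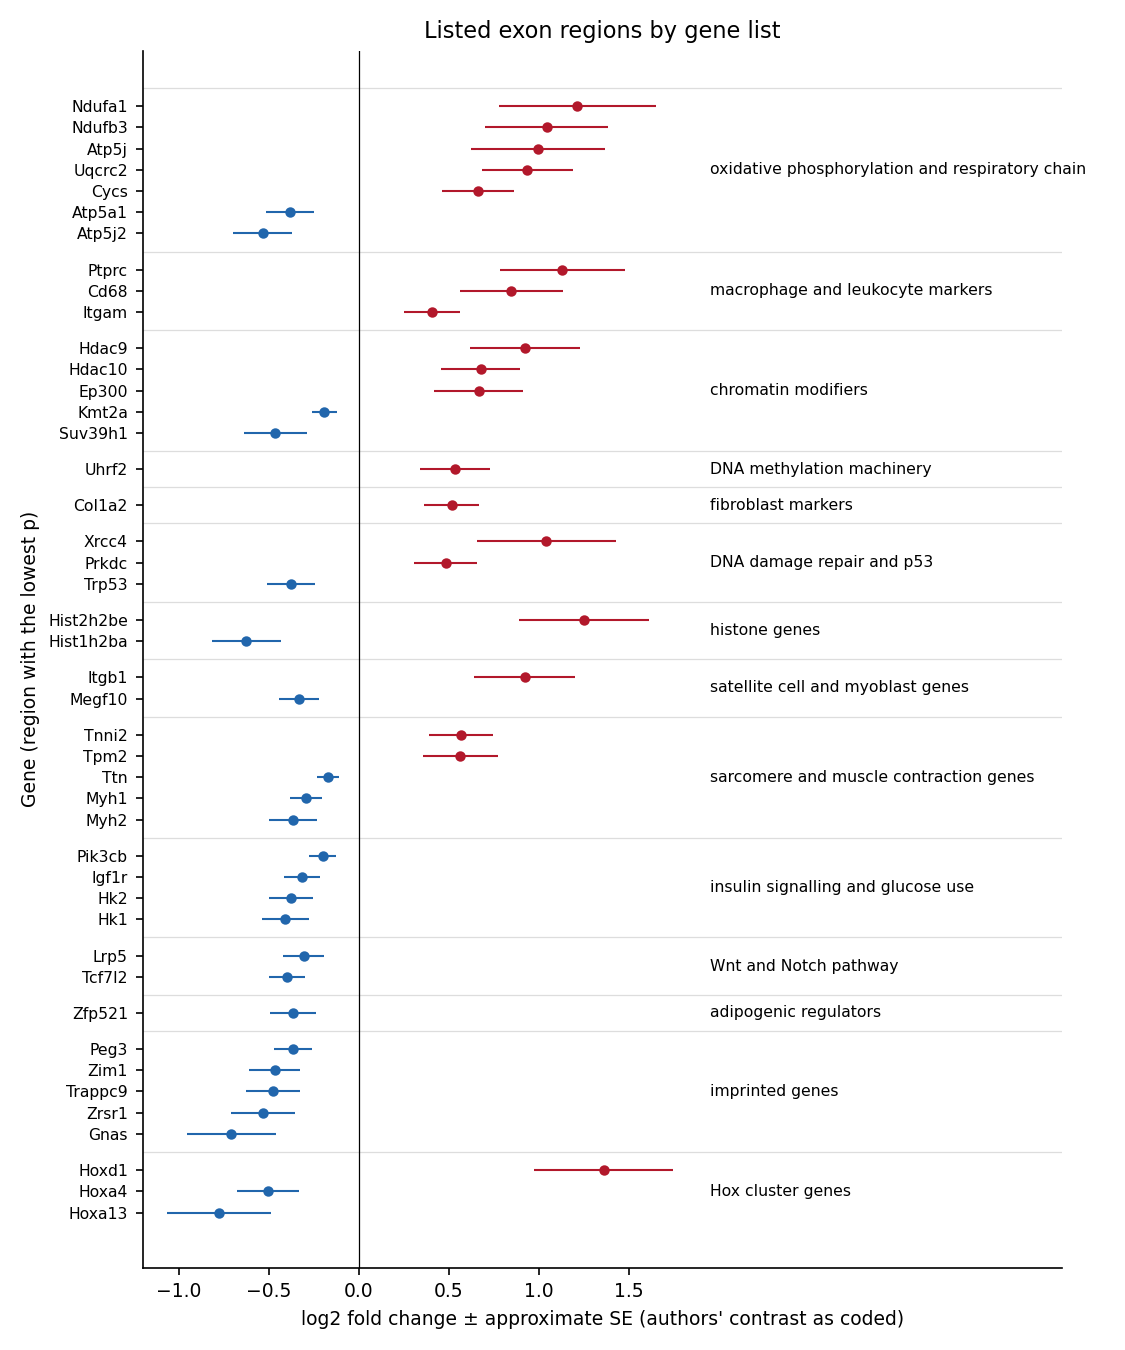
Points are the deposited log2 fold changes of the listed member genes of each gene list, 1 region per gene with the lowest p, and bars are approximate standard errors. The 5 imprinted genes lie between -0.71 and -0.37 and the 3 leukocyte genes between 0.41 and 1.13, while most other lists hold genes on both sides. Direction followed abundance through the whole list of regions, and its part here was not tested.

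Promoters, islands and shores were counted from the same libraries, so the values are given side by side only. Higher regions made up 23.6% of 322 promoters in the deposited tables, 81% of 84 CpG islands and 34.2% of 190 CpG shores, against 66.4% of exon regions. The lists end at different unadjusted p-values, 0.00140 for promoters, 0.00252 for islands, 0.000650 for shores and 0.00877 for exons, and under 0.001 the exon share was 75.4%, so the shares are not on the same footing. A promoter entry of the same transcript was found for 65 exon regions of 59 symbols, or 3.29% of exon symbols. Both were lower for 48 symbols and both higher for 9, and the exons were higher and the promoter lower for 2. Some symbols repeat a locus, so the counts are not of separate loci. Amd1 and Amd2 had the same values, -0.38 in the exons and -1.11 at the promoter, and NR_029418 had the promoter entry of Tmem161b. For 54 of the 59 the promoter value was the larger in size, and a promoter window reaches 1000 bases past the start, so the pairs can share exonic DNA as well as libraries. The opposite pair with the larger difference was Acsm3, a mitochondrial medium-chain acyl-CoA synthetase, with 3 transcripts between 1.11 and 1.12 in the exons (approximate SE 0.34 to 0.35) and -1.15 at the promoter. Rtp4, an interferon-induced chaperone of receptor transport, stood at 0.73 (approximate SE 0.25) in the exons and -1.09 at the promoter. Tmem161b had the highest promoter value of the pairs, 2.60, with 0.88 in the exons.

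**Figure D4:**
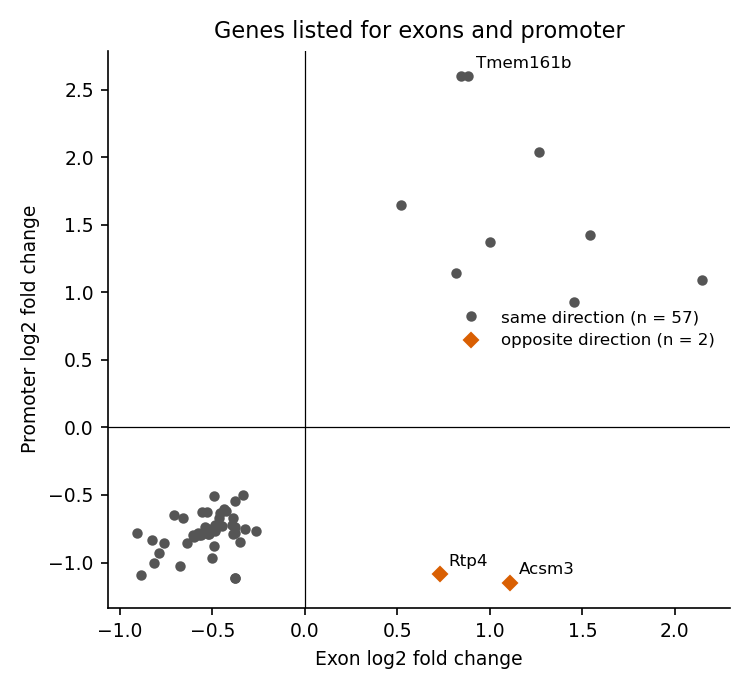
Each point is 1 of the 59 symbols listed in both the exon and the promoter table, with the deposited exon log2 fold change on the horizontal axis and the promoter value on the vertical axis. The 57 grey points have the same sign in both tables, which share libraries, and the 2 orange diamonds are Acsm3 and Rtp4.

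For 4 of these genes the 300 bases around the start of the listed transcript are printed. They lie inside the promoter entry of the same transcript, and their last 50 bases lie past the start. Windows are those of RefSeq (GRCm38.p6), from 250 bases before to 50 after the start, in the direction of the gene, and each CG is in capitals. CG reads the same on both strands.
Acsm3, chr7:119760673-119760972, plus strand: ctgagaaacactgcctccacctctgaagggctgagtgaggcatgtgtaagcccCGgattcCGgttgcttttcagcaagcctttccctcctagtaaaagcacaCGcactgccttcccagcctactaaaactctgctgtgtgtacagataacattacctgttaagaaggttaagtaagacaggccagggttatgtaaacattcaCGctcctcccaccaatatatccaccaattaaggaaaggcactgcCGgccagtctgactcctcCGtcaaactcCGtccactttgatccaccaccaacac
Olfr606, chr7:103451089-103451388, plus strand: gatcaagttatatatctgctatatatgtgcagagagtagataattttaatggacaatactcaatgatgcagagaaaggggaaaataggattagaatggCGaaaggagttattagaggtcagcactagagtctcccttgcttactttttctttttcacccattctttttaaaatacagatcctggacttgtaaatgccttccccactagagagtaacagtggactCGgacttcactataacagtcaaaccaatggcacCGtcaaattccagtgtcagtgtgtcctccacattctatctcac
Bdnf, chr2:109722671-109722970, plus strand: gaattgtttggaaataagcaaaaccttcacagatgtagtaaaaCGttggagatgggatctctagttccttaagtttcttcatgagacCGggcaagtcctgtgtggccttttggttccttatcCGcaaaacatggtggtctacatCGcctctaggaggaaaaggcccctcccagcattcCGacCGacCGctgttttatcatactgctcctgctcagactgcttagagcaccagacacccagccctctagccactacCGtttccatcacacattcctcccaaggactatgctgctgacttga
Astl, chr2:127341386-127341685, plus strand: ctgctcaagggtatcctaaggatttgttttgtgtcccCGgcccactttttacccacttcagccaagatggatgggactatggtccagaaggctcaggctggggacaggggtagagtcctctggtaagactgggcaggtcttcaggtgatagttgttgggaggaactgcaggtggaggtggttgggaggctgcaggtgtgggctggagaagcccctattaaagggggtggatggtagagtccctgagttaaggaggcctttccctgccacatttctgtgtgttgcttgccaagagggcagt

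The Acsm3 window held 7 CG, and 52.1% of all windows in the RefSeq table hold at least as many. Olfr606, lower in both at -0.89 for the exons and -1.09 for the promoter, had 3 CG, a count that 76.7% of windows reach. Bdnf, the brain-derived growth factor that activated muscle cells also make, was lower in both at -0.32 (approximate SE 0.12) and -0.75, with 8 CG, a count that 48.7% reach. Astl, an egg protease, was higher in both at 1.001 (approximate SE 0.33) and 1.38 and had 1 CG, which 94.6% of windows reach. A CG in these letters is a site that can be methylated and says nothing of its state here.

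RNA of the same cells is a separate measurement. In the authors' deposited RNA table for irradiated against unirradiated cells over both diets, 827 of 12371 tested genes, or 6.68%, had an adjusted p under 0.05, with 3.05% higher and 3.64% lower after irradiation. Of 1645 exon genes with an Ensembl identifier 68 were among them, which is 4.13%, and they made up 8.22% of the RNA genes. Some exon genes may not have been tested for RNA, so the 4.13% and the 6.68% do not have the same base. Of the 68, 21 had higher exons and higher RNA, 21 higher exons and lower RNA, 18 lower exons and higher RNA and 8 lower exons and lower RNA. The sign was the same for 42.6% of them, and the unnamed sides of the capture contrast mean that the same sign need not be the same treatment. RNA values of this table are given as the deposited number divided by 2, which averages the effects on chow and on the HFD.

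The gene with the highest RNA value among the 68 was Myh2, a fast myosin heavy chain gene, at 3.79 in RNA (adjusted p = 8.52e-05) and -0.37 (approximate SE 0.13) in the exons. The lowest were 5930412G12Rik, at -3.05 in RNA (adjusted p = 1.69e-08) and 1.08 (approximate SE 0.31) in the exons, and Il1rl1, an interleukin receptor chain, at -2.67 in RNA (adjusted p = 0.00350) and 0.80 (approximate SE 0.27) in the exons. All 3 had opposite signs, with the lower exon value at Myh2 and higher ones at the other 2. Mean RNA abundance was 5.49 log2 CPM for Myh2, 3.60 for Il1rl1 and only 0.94 for 5930412G12Rik. By exon p, the list was led by the fucosyltransferase gene Fut8, at 0.78 in the exons and 0.47 in RNA, the sialomucin gene Podxl, at 0.65 and 1.37, Slfn9, at 1.002 and 0.65, and the synaptic vesicle gene Synpr, at 1.02 and 1.04. Then followed Tmtc2, at -0.29 and 0.58, the small GTPase gene Gem, at -0.48 and 0.91, Tbc1d24, at 0.37 and -0.36, Map3k15, at 0.76 and 0.58, and the purine synthesis gene Adss, at 1.06 and 0.45. The collagen gene Col1a2 had 0.52 in the exons and -1.18 in RNA, the tropomyosin gene Tpm2 0.56 and -0.54, and Itgam 0.41 and -0.79. RNA abundance was also low for Synpr (0.21 log2 CPM), Map3k15 (0.59) and Itgam (0.85).

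On chow, by the authors' deposited RNA values, 155 of the 12371 genes, or 1.25%, had an adjusted p under 0.05, and 9 of them were exon genes. Among these were Podxl at 1.70 in RNA, Col1a2 at -1.50 and the nuclear receptor corepressor Nrip1 at 0.48 in RNA with -0.48 (approximate SE 0.15) in the exons. On the high fat diet 8 genes, or 0.0647%, had an adjusted p under 0.05. The 2 exon genes among them were 5930412G12Rik at -2.66 and Myh2 at 4.71 in RNA. These genes are in the table over both diets as well, which uses the same libraries.

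**Figure D5:**
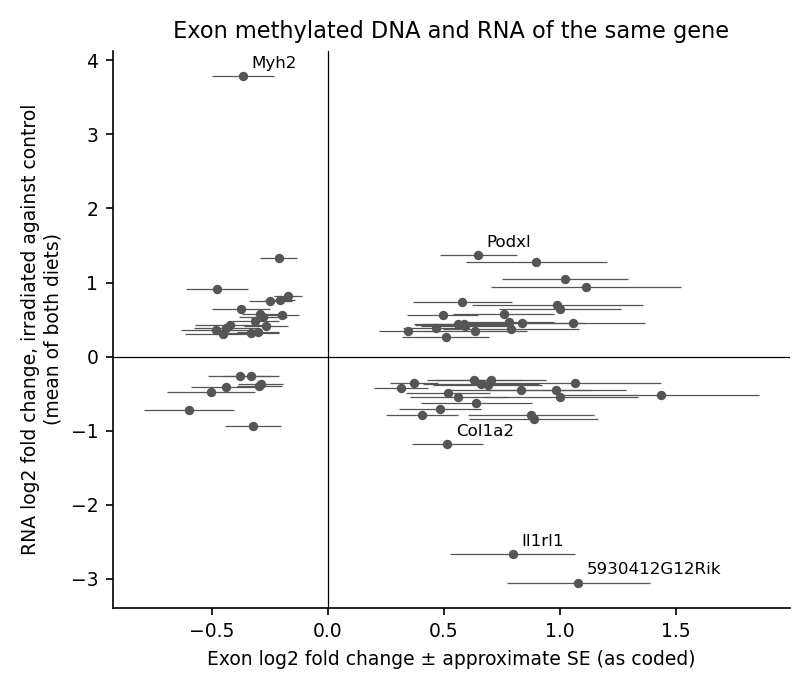
Points are the 68 exon genes with an RNA adjusted p under 0.05 over both diets, with the deposited exon log2 fold change and its approximate standard error on the horizontal axis and the mean RNA log2 fold change of both diets on the vertical axis. Points lie in all 4 quadrants, with 21, 21, 18 and 8 genes. Myh2 at 3.79 and 5930412G12Rik at -3.05, the latter at a low RNA abundance of 0.94 log2 CPM, mark the ends of the RNA range.

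Bisulfite sequencing reads methylation of single cytosines and was also made from satellite cells. In the deposited bisulfite tables, group 1 was higher in 48.1% of 9827 regions for radiation, in 51.9% of 9617 for diet and in 44.8% of 1057 for the interaction, and groups 1 and 2 are not named. Listed exon intervals overlapped bisulfite regions by at least 1 base in 427 pairs for radiation, of which 203 had the same sign. For diet it was 214 of 439 pairs and for the interaction 21 of 33. Pairs repeat regions and are not independent. The radiation pairs came from 300 bisulfite and 211 exon regions, the diet pairs from 295 and 225, and the interaction pairs from 25 and 27. By exon p, the overlapping regions were led on the higher side by the potassium channel gene Kcnn3 at 0.55 (approximate SE 0.14), the heterochromatin protein gene Mphosph8 at 1.02 (approximate SE 0.26), the copper chaperone Sco1 of cytochrome oxidase at 1.14 (approximate SE 0.30), the transcription factor Sox12 at 0.72 (approximate SE 0.19), Tspan7 at 1.20, Hdhd2 at 0.67 and Ttc14 at 0.97. On the lower side they were Chsy3, the deubiquitinase gene Usp12 at -0.43 (approximate SE 0.11) and Cachd1 at -0.32 (approximate SE 0.08). Because a listed interval is not the exonic DNA itself, these pairs need not share measured DNA.

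Another match, added after the data were seen, took bisulfite regions that the authors annotated to an exon. It matched them by the gene of that exon and not by position, so it is not a stricter form of the overlap. It left 7 of 109 regions for radiation, 6 of 97 for diet and 3 of 35 for the interaction. For radiation, 6 of the 7 had the same sign. They were Tmem2, a hyaluronan-degrading enzyme, at -6.59 percentage points, the ubiquitin ligase Nedd4l at -14.8, the synaptic vesicle protein Sv2a at -17.0, the RNA helicase Dhx16 at -12.3, Eps8l1 at -0.75 and Gm16576 at 0.22, with exon fold changes of -0.26, -0.25, -0.29, -0.34, -0.44 and 0.82. The remaining one, Fam83h, stood at -9.86 percentage points and 0.53. For diet 2 of 6 had the same sign. The homeobox gene Meox1 stood at -18.4 percentage points with 0.59 in the exons, the desmosome gene Dsp at -7.72 with -0.32, Inpp5e at -10.4 with 0.56, Gm16576 at -33.8 with 0.82, Dock8 at 11.4 with -0.20 and Eps8l1 at -0.21 with -0.44. For the interaction Zbtb37 had regions at 41.9 and -3.60 percentage points with -0.34 in the exons, and Dock8 stood at -1.88. Gm16576 thus had bisulfite values of 0.22 and -33.8 percentage points in the radiation and diet tables for the same region.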

How the data were processed

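Methylated DNA captured on MethylMiner beads was sequenced from 24 satellite cell libraries, per the labels' protocols. Per the submitters' processing notes, the build was mm10 and the tools were CASAVA 1.8.2, Trimmomatic, Bowtie2, Picard, featureCounts and edgeR; the sources used here give neither settings nor order. The deposited tables gave, per region, a p-value, a likelihood ratio, a mean log2 CPM and a log2 fold change computed by the authors. The deposited fold changes and likelihood ratios share their columns with notes and tallies under the regions, so they were handled as a score, and only lines that carry a chromosome were kept. The deposited bisulfite differences between group 1 and group 2 were multiplied to give percentage points. RNA tables held the authors' log2 fold changes, p-values and adjusted p-values.

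No refit was possible, since 0 columns held single samples; depth is unknown, and no interval that needs it is given for a measured value. Regions were read, matched to RefSeq tables and counted in Python 3.11.15 with pandas 2.3.3, numpy 2.4.6 and scipy 1.17.1; overlap counting was tested on simulated data. The authors' p-values were used as deposited, and no p was computed here. Genes named were the 5 highest and 5 lowest fold changes, the 8 highest and 8 lowest at or above the median abundance, the 5 lowest p per direction, up to 4 per gene list, up to 10 with an RNA change, the 5 genes with most regions (extended to 8, since 6 tied at 8 regions), regions overlapping bisulfite regions and genes with an opposite promoter. Hairpins, Ddx17, Tmem161b, Bdnf, Astl, Tpm2, Itgam and Il1rl1 among the RNA genes, and Tbc1d24, and list members past 4, were chosen after their values were seen. Some genes are not reported here and were left out of the gene lists after their values were seen, so the counts of those lists are over the remaining genes. The members and lists were chosen with earlier results of these data known.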

Additional observations from a re-analysis of the deposited data

How the results depend on the processing

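No paired analysis was possible because the tables held comparison statistics and 0 columns of single samples, and for the same reason no replicate could be left out. The share of higher exon regions, 66.4%, was 67.4% with 1 region per gene symbol, 66.5% for regions of at least 500 bases, 65.9% on autosomes and 66.2% over every line. It was 75.4% at an unadjusted p under 0.001 and 99.2% at an absolute log2 fold change of at least 1. It turned to 37.5% at or above the median abundance, where fewer of the scarce regions, mostly higher, were left. The correlation of fold change and abundance, -0.815, was -0.383 at or above the median abundance, -0.866 at an unadjusted p under 0.001 and -0.790 by Pearson's measure. Exons and promoter had the same direction in 96.6% of genes, and in 100% both of the 10 genes whose listed intervals do not overlap and of the 24 with an exon p under 0.001. All 10 lie on the minus strand, where the listed interval is not the DNA next to the start, so they are no set of pairs free of shared DNA. They also count Amd1 and Amd2, which have the same values, as separate genes. The share of pairs with the same sign as bisulfite regions was 41.3% for radiation and 43.8% for diet at differences of at least 10 percentage points, and 44.4% for the interaction, against 47.5%, 48.7% and 63.6%. By the gene of the annotated exon it was 85.7% of 7 regions and 33.3% of 6. The other 11 of 24 alternatives stayed within the 95% exact binomial interval of the main share, which covers counting only and takes items as separate. Some of these intervals are too wide to tell much. For the RNA sign the interval was 0 to 84.2% around 0 of 2 genes on the high fat diet and 13.7 to 78.8% around 4 of 9 on chow. For the interaction it was 45.1 to 79.6% around 21 of 33 pairs. Why the moved values differ was not tested. Depth is unknown, so no limit from depth can be given.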

Other observations

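Gene families chosen by symbol after the values were seen are given as counts of 1 region per gene, against 67.4% higher over all 1796 symbols. Abundance per kb moved with direction across most of these families, and its part in the counts was not tested. Among families of low median abundance per kb, 18 of 23 odorant receptor genes were higher (2.05 log2 CPM per kb), 7 of 8 interleukin genes and receptors (2.08), 6 of 8 chemokine genes and receptors (2.05), 6 of 7 Adam family genes (1.72) and 3 of 3 Cnot genes (1.73), which encode subunits of the complex that shortens messenger RNA tails. Collagens were higher in 5 of 6 (2.86) and solute carriers in 18 of 26 (2.93). Genes with a Gpr symbol, for G protein coupled receptors, were higher in 6 of 12 (3.25). Among families of high median abundance per kb, 11 of 33 zinc finger genes with a Zfp symbol were higher (4.23), 0 of 3 protocadherins, which are cell adhesion proteins (4.35), and 0 of 3 RNA-binding Rbm genes (4.61). Symbols that begin with Mir had the highest median of these families (5.95), and 17 of 35 were higher. Most of these regions are very short, which raises a value per kb. Before division by length their median was 2.45 log2 CPM, in the lowest quintile of abundance, where 99.0% of the exon list was higher. Symbols of predicted genes that begin with Gm were higher in 47 of 66 (2.34) and those that end in Rik in 97 of 121 (2.40). The collagen Col1a2 and the zinc finger gene Zfp521 are also in gene lists of the report.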
